A study of Mus musculus x Mus spretus with 8 samples.

Results

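The 10 genes described here encode subunits and feedback inhibitors of NF-kB: Nfkb1, Nfkb2, Rela, Relb, Nfkbia, Nfkbie, Nfkbiz, Bcl3, Tnfaip3 and Zc3h12a. They were chosen by name, as the rows of the count table whose Ensembl identifier maps to these symbols, and make up 10 of 49670 genes in the table. The choice was made with earlier results of these data known. All 10 passed the filter on low counts. Their RNA was read in 8 libraries of Patski cells, a female mouse fibroblast line with the strain label C57BL/6 X SPRET/EiJ, that is, a hybrid of laboratory mouse and Mus spretus. Reads covering a base that differs between the parental genomes can be traced to the copy they came from. Lines labelled homozygous null for Stc1 (Stc1-KO), for Pygo1 (Pygo1-KO) and for Rlim (Rlim-KO) were set against the wild-type line (WT), with 2 libraries in each of the 4 groups. All were the same hybrid line kept in DMEM with serum, and no treatment or stimulus is given. Per the series text each mutation is represented by separate mutant lines. The Rlim-KO pair differed less within itself than the WT pair, and whether its libraries are separate lines cannot be told from the counts, so the Rlim-KO spread may be technical too. For the WT pair no separate cultures are described, so the p-values rest on the spread between these libraries alone, which may be technical.

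NF-kB proteins are dimers of Rel family subunits that bind DNA at genes of inflammation and survival. In resting cells the classical IkB proteins hold them in the cytoplasm. Upon a signal from a cytokine or Toll-like receptor, the IKK kinases mark IkB for destruction and the dimers enter the nucleus. In the non-canonical branch, the kinase NIK (gene Map3k14) drives processing of p100, the product of Nfkb2, to p52, which pairs with RELB. Several NF-kB target genes encode the pathway's own brakes, so their RNA is widely used as a readout of NF-kB activity, also in fibroblasts.

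Total counts ran from 73128996 to 81500061 per library, and 50.64 to 52.64% of counts carried a genome. RNA of the targeted gene was not called lower under any label: Stc1 stood at 3.67 and 68.4 CPM (counts scaled to library size) in Stc1-KO, against 3.84 and 3.15 in WT. Pygo1 stood at 2.50 and 0.674 CPM in Pygo1-KO, against 2.49 and 2.44 in WT, and Rlim at 71.9 and 64.2 CPM in Rlim-KO, against 57.2 and 51.4 in WT. A gene's total count cannot reveal an edit within its transcript, so each group is named by its label. The libraries of a pair did not match equally well, with a median absolute log2 difference over genes of 0.36 in the Stc1-KO pair, 0.20 in the Pygo1-KO pair, 0.07 in the Rlim-KO pair and 0.10 in the WT pair. Of 10 fibroblast markers 5 or 6 were under 1 CPM in every library, among them Col1a2, Thy1 and Lum at or near 0, while Vim reached 833 to 1279 CPM and Col5a1 199 to 377 CPM. Among the 7 fibroblast markers tested, Col3a1 and Pdgfrb were near 0 in WT and entered the test through the groups where they are high. Higher than WT without overlap were 3, 6 and 5 of the 7 in Stc1-KO, Pygo1-KO and Rlim-KO (22.2, 29.6 and 35.7% of all genes). In the same order 0, 0 and 2 were lower (22.2, 31 and 35.6% of all genes). The median log2 fold change of the 7 markers was 0.81, 1.66 and 0.65. By edgeR 0 of them passed under each label (1, 3 and 2 at an unadjusted p under 0.05; DESeq2 called 0, 3 and 1), and their summed level ranged from 1143 to 1668 CPM over the mutant-labelled libraries, against 1230 and 1262 CPM in WT. The kidney epithelial cadherin Cdh16 stood at 1225 to 2364 CPM, and Cdh1, the epithelial cadherin, fell in Pygo1-KO (0.201 and 0.344 CPM) and in Rlim-KO (0.498 and 0.514 CPM), against 9.52 and 8.91 CPM in WT (edgeR, adjusted p = 0.0161 and 0.0298). The epithelial markers went both ways in Rlim-KO, where 3 of the 5 tested were higher and 2 lower without overlap (35.7 and 35.6% of all genes). The higher ones included Epcam at 2.48 and 2.67 CPM in Rlim-KO against 0.651 and 1.14 CPM in WT (edgeR, adjusted p = 0.0879). Summed epithelial markers (8 genes) ranged from 1227 to 2372 CPM over the mutant-labelled libraries, against 1793 and 1905 CPM in WT. Of the defining leukocyte markers, Ptprc and Adgre1 were under 0.3 CPM in every library, whereas Csf1r stood at 26.5 to 57.0 CPM. Summed leukocyte markers (10 genes) ranged from 86.7 to 114 CPM over the mutant-labelled libraries, against 105 to 111 CPM in WT. The macrophage marker Cd68 rose in Pygo1-KO, at 7.61 and 6.52 CPM against 1.81 and 2.39 CPM in WT (edgeR, adjusted p = 0.0169). Of the 7 leukocyte markers tested there, 4 were higher and 1 lower than WT without overlap (29.6 and 31% of all genes). The lower 1 was Csf1r, at 33.4 and 36.1 CPM against 49.5 and 50.7 CPM in WT. The endothelial marker Pecam1 rose in Rlim-KO, at 2.27 and 2.26 CPM against 0.026 and 0.163 CPM in WT (edgeR, adjusted p = 0.0293). Cdh5 stood at 5.60 and 5.68 CPM in Rlim-KO, against 1.59 and 1.54 CPM in WT. The rest of the 6 endothelial markers, Kdr, Tek, Tie1 and Emcn, were near 0 in every library and not tested. The part of these markers in the results was not tested.

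Over the 10 genes, RNA was higher in the mutant-labelled lines than in WT with 1 exception. In Pygo1-KO and in Rlim-KO, both libraries lay above both WT libraries for all 10 genes. In Stc1-KO this held for 9 genes, and Nfkb1 was lower in both libraries than in either WT library. Such separation is common with 2 libraries a group: 22.2, 29.6 and 35.7% of all 17839 genes tested lay higher without overlap in Stc1-KO, Pygo1-KO and Rlim-KO, and 22.2, 31 and 35.6% lay lower. The median log2 fold change of the 10 genes was 0.98 in Stc1-KO, 1.02 in Pygo1-KO and 0.62 in Rlim-KO, beside medians of 0.01, -0.00124 and 0.00645 over all genes tested. The 3 comparisons share their WT libraries, and the genes were chosen with earlier results of these data known. These are bulk samples, in which fewer cells of a type and less RNA per cell cannot be told apart.

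At an adjusted p under 0.05 (edgeR quasi-likelihood test fitted over all 8 libraries and all genes), 2 of the 10 genes rose in Stc1-KO, where 0.286% of all genes rose and 0.291% fell (0.577% called). The same test called 4 in Pygo1-KO, where 1.54% of all genes rose and 0.807% fell (2.35% called), and 1 in Rlim-KO, where 0.785% rose and 0.617% fell (1.4% called). None fell (0 under each label by edgeR and by DESeq2; 1, 0 and 0 were lower at an unadjusted p under 0.05, the 1 being Nfkb1 in Stc1-KO). By DESeq2, 6, 7 and 6 of the 10 rose, where that tool called 4.79, 8.98 and 6.96% of all genes in either direction. Without either WT library no member passed in any of the 3 comparisons, and only 3 to 10 of all genes did. Without both Stc1-KO libraries, a choice made after seeing how far that pair differed, 9 genes rose in Pygo1-KO and 9 in Rlim-KO, where 21% and 17.4% of all genes were called in either direction.

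**Figure D1:**
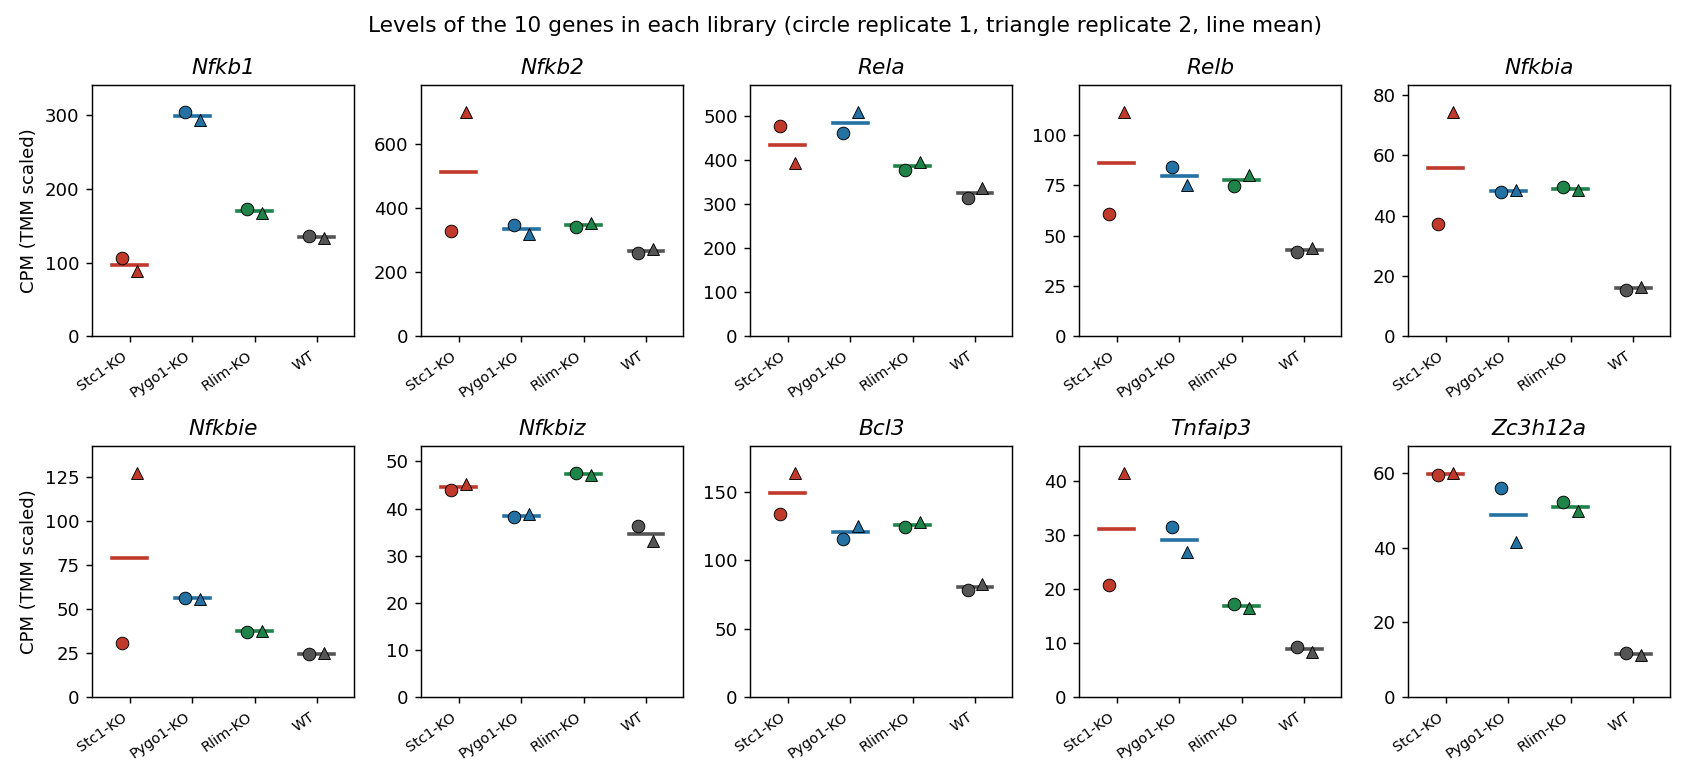
Levels of the 10 genes in CPM (linear axis from 0) in the Stc1-KO, Pygo1-KO, Rlim-KO and WT libraries, with circles for replicate 1, triangles for replicate 2 and lines for the mean of a pair. Zc3h12a lies above 41 CPM in every mutant-labelled library and under 12 CPM in both WT libraries, and Stc1-KO replicate 2 stands far above replicate 1 for Nfkb2, Nfkbie, Nfkbia and Tnfaip3.

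Zc3h12a (chromosome 4, 125118423 to 125127840, minus strand, GRCm38) encodes regnase-1, a ribonuclease that degrades cytokine messages, and was the 1 member called under every label. Its level was 59.6 and 60.1 CPM in Stc1-KO, 56.1 and 41.5 CPM in Pygo1-KO, 52.2 and 49.8 CPM in Rlim-KO, and 11.7 and 11.4 CPM in WT. Every mutant-labelled library lay at 3.59 times the WT mean or more, and none overlapped WT. The log2 fold changes were 2.37 ± 0.16 (SE) in Stc1-KO, 2.08 ± 0.16 in Pygo1-KO and 2.14 ± 0.16 in Rlim-KO (2 libraries in each group; adjusted p by edgeR = 0.00397, 0.00342 and 0.00459). Over all settings the fold changes of Zc3h12a stayed between 1.84 and 2.40 on the log2 scale. Without WT replicate 1 and without WT replicate 2, its adjusted p (edgeR) was 0.141 and 0.136 in Stc1-KO, 0.114 and 0.117 in Pygo1-KO, and 0.131 and 0.132 in Rlim-KO. Leaving out either Rlim-KO replicate also ended the Rlim-KO call, and the Stc1-KO call ended with the compared groups alone, a fit in which 0 of all genes passed (1735 at an unadjusted p under 0.05).

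Tnfaip3 (chromosome 10, 19000910 to 19015657, minus strand) encodes A20, an enzyme that edits ubiquitin chains and shuts down signalling upstream of IKK. It stood at 20.7 and 41.5 CPM in Stc1-KO, 31.4 and 26.8 CPM in Pygo1-KO, 17.3 and 16.5 CPM in Rlim-KO, and 9.29 and 8.38 CPM in WT. Each pair lay above WT, and Stc1-KO replicate 2 held the highest value, close to 2 times replicate 1. Tnfaip3 rose in Pygo1-KO (log2 fold change 1.72 ± 0.31, SE; edgeR, adjusted p = 0.0436). The values were 1.82 ± 0.31 in Stc1-KO and 0.94 ± 0.30 in Rlim-KO, and neither passed (edgeR, adjusted p = 0.0669 and 0.175). The Pygo1-KO call ended when any of the Pygo1-KO, Rlim-KO or WT libraries was left out and with each chromosome scaled on its own.

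Among the classical IkB genes, Nfkbia (chromosome 12, 55489410 to 55492647, minus strand) encodes IkBalpha, whose gene is itself switched on by NF-kB. Its level was 37.2 and 74.3 CPM in Stc1-KO, 47.8 and 48.4 CPM in Pygo1-KO, 49.5 and 48.4 CPM in Rlim-KO, and 15.3 and 16.5 CPM in WT. All 6 mutant-labelled libraries were at least 2.34 times the WT mean, and the Pygo1-KO and Rlim-KO libraries lay close together. Nfkbia rose in Pygo1-KO (log2 fold change 1.60 ± 0.29, SE; edgeR, adjusted p = 0.0474), and the fold changes of 1.81 ± 0.29 in Stc1-KO and 1.62 ± 0.29 in Rlim-KO missed the threshold (edgeR, adjusted p = 0.0652 and 0.0566). The call in Pygo1-KO ended when any of the Pygo1-KO, Rlim-KO or WT libraries was left out and with each chromosome scaled on its own. Nfkbie (chromosome 17, 45555703 to 45563169, plus strand), the gene of IkBepsilon, stood at 30.9 and 128 CPM in Stc1-KO, 56.5 and 55.9 CPM in Pygo1-KO, 37.2 and 37.8 CPM in Rlim-KO, and 24.4 and 25.1 CPM in WT. The Stc1-KO libraries of Nfkbie were 4.13-fold apart, the widest gap of the 10 genes. The log2 fold changes of Nfkbie were 1.68 ± 0.55, 1.18 ± 0.55 and 0.60 ± 0.54 in Stc1-KO, Pygo1-KO and Rlim-KO, and none passed (edgeR, adjusted p = 0.22, 0.276 and 0.613).

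The atypical IkB proteins act in the nucleus, where BCL3 binds p50 and p52 dimers and IkBzeta (gene Nfkbiz) works as a cofactor at a subset of inflammatory genes. Bcl3 (chromosome 7, 19808462 to 19822770, minus strand) stood at 134 and 164 CPM in Stc1-KO, 116 and 125 CPM in Pygo1-KO, 124 and 128 CPM in Rlim-KO, and 78.1 and 82.8 CPM in WT. It rose in Stc1-KO (log2 fold change 0.89 ± 0.13, SE; edgeR, adjusted p = 0.0494), a call that ended with other size factors (RLE), with the compared groups alone and without any of the Pygo1-KO, Rlim-KO or WT libraries. In Pygo1-KO and Rlim-KO the values were 0.58 ± 0.13 and 0.65 ± 0.13 (edgeR, adjusted p = 0.074 and 0.0699). An antisense gene covers 6.51% of the Bcl3 exon bases, and whether the counting used strand is not known from the sources, so reads there cannot be told apart. Nfkbiz (chromosome 16, 55811375 to 55838899, minus strand) stood at 44.0 and 45.3 CPM in Stc1-KO, 38.1 and 38.7 CPM in Pygo1-KO, 47.6 and 47.0 CPM in Rlim-KO, and 36.2 and 33.1 CPM in WT. No mutant-labelled library of Nfkbiz overlapped WT, and the log2 fold changes of 0.36 ± 0.11, 0.15 ± 0.11 and 0.45 ± 0.11 did not pass (edgeR, adjusted p = 0.185, 0.469 and 0.092).

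The subunit gene with the clearest difference between labels was Nfkb1 (chromosome 3, 135584655 to 135691547, minus strand), which encodes p105, the precursor of p50. Its level was 107 and 88.2 CPM in Stc1-KO, 305 and 294 CPM in Pygo1-KO, 174 and 167 CPM in Rlim-KO, and 136 and 134 CPM in WT. No 2 groups overlapped: Pygo1-KO was highest, then Rlim-KO, WT and Stc1-KO. Nfkb1 rose in Pygo1-KO (log2 fold change 1.15 ± 0.12, SE; edgeR, adjusted p = 0.0121), and stood at -0.47 ± 0.12 in Stc1-KO and 0.34 ± 0.12 in Rlim-KO without passing (edgeR, adjusted p = 0.163 and 0.221). The Pygo1-KO call ended without either Rlim-KO or either WT library and with each chromosome scaled on its own. Over all settings its log2 fold change in Pygo1-KO stayed within 1.00 to 1.17.

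With the lines set directly against each other over all 8 libraries, Nfkb1 was the only member called, by edgeR or by DESeq2. An uncalled gene may still differ. Nfkbie and Tnfaip3 were also called between Pygo1-KO and Rlim-KO with the compared groups alone and without both Stc1-KO libraries. In those fits 5.66 and 13.9% of all genes were called. Between Stc1-KO and Pygo1-KO, Nfkb1 was the 1 member called (of all genes 1.74% were called, 0.51% higher and 1.23% lower), lower in Stc1-KO with a log2 fold change of -1.62 ± 0.13 (SE; edgeR, adjusted p = 0.0056). The libraries of the pair did not overlap in 4 genes, with Nfkbiz, Bcl3 and Zc3h12a higher (19.2% of all genes) and Nfkb1 lower (18.3%) in Stc1-KO. The Nfkb1 call held with any single library left out and ended with the compared groups fitted alone (edgeR, adjusted p = 0.294). Between Pygo1-KO and Rlim-KO, Nfkb1 was again the 1 member called (1.02% of all genes were called, 0.583% higher and 0.437% lower), higher in Pygo1-KO at 0.81 ± 0.12 (edgeR, adjusted p = 0.0429), and this call ended with each chromosome scaled on its own (0.57; edgeR, adjusted p = 0.225) and without any 1 of the Pygo1-KO, Rlim-KO or WT libraries. Between Stc1-KO and Rlim-KO no member was called by edgeR (0 of 10, with 0.381% of all genes called, 0.112% higher and 0.269% lower, 2 members at an unadjusted p under 0.05 and 1 called by DESeq2). Nfkb1 stood at -0.81 ± 0.12 there (edgeR, adjusted p = 0.0582). Without overlap, 3 members were higher (22.5% of all genes) and 2 lower (23.4%) in Stc1-KO than in Rlim-KO, and 4 were higher (28.7%) and 1 lower (29.6%) in Pygo1-KO than in Rlim-KO. For Tnfaip3 the values were 0.88 ± 0.30 between Stc1-KO and Rlim-KO and 0.78 ± 0.30 between Pygo1-KO and Rlim-KO (edgeR, adjusted p = 0.254 and 0.267).

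Rela, Relb and Nfkb2 were higher than WT in every mutant-labelled library and passed under no label. Rela (chromosome 19, 5637483 to 5648130, plus strand), the gene of the transactivating subunit p65, stood at 477 and 394 CPM in Stc1-KO, 461 and 509 CPM in Pygo1-KO, 377 and 396 CPM in Rlim-KO, and 313 and 336 CPM in WT. Its log2 fold changes were 0.42 ± 0.14, 0.58 ± 0.14 and 0.25 ± 0.14 (SE; edgeR, adjusted p = 0.213, 0.0819 and 0.384). Relb (chromosome 7, 19606217 to 19629438, minus strand), the partner of p52, stood at 61.1 and 112 CPM in Stc1-KO, 84.3 and 75.4 CPM in Pygo1-KO, 74.7 and 80.4 CPM in Rlim-KO, and 41.9 and 44.2 CPM in WT. No mutant-labelled library of either gene overlapped WT. The fold changes of Relb were 1.00 ± 0.26, 0.89 ± 0.26 and 0.85 ± 0.26 on the log2 scale (SE; edgeR, adjusted p = 0.157, 0.122 and 0.157).

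Nfkb2 (chromosome 19, 46304320 to 46312385, plus strand) stood at 328 and 701 CPM in Stc1-KO, 349 and 321 CPM in Pygo1-KO, 342 and 354 CPM in Rlim-KO, and 260 and 273 CPM in WT. Apart from Stc1-KO replicate 2, at 2.63 times the WT mean, the mutant-labelled libraries of Nfkb2 lay within 1.20 to 1.33 times it. The log2 fold changes were 0.95 ± 0.31, 0.33 ± 0.31 and 0.38 ± 0.31 (SE; edgeR, adjusted p = 0.22, 0.593 and 0.568). Exons of Psd on the opposite strand overlap 6.52% of the Nfkb2 exon bases, and those of AC114539.1, a noncoding gene on the opposite strand with no row in the count table, overlap 11.58%. Reads there cannot be told apart from those of Nfkb2.

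**Figure D2:**
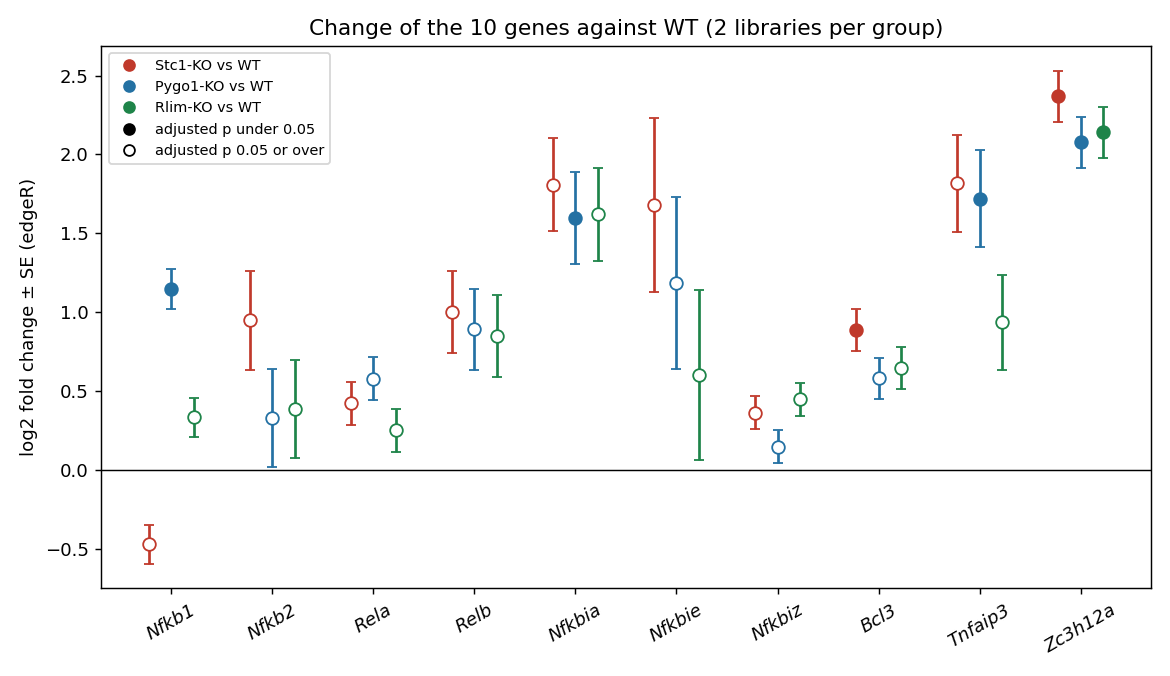
Log2 fold change against WT (edgeR, bars give ± 1 SE, 2 libraries per group) of each gene in Stc1-KO, Pygo1-KO and Rlim-KO, with filled points at an adjusted p under 0.05. The SE comes from the fit over all 8 libraries, not from the spread of the compared pairs alone. All 3 points of Zc3h12a are filled and above 2, and Nfkb1 in Stc1-KO is the 1 point below 0.

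The 2 Stc1-KO libraries differed more from each other in these genes than any other pair. The median absolute log2 difference over the 10 genes was 0.58 within the Stc1-KO pair, 0.12 within the Pygo1-KO pair, 0.05 within the Rlim-KO pair and 0.08 within the WT pair. Replicate 2 was higher than replicate 1 by 4.13-fold for Nfkbie, 2.13-fold for Nfkb2, close to 2-fold for Nfkbia and Tnfaip3 and 1.83-fold for Relb. Zc3h12a and Nfkbiz were within 1.01-fold and 1.03-fold of each other, and Nfkb1 and Rela were 1.21-fold lower in replicate 2. The median over the 10 genes of the log2 ratio to the WT mean was 0.53 in replicate 1 and 1.38 in replicate 2. Cdh5, a defining endothelial marker, stood at 100 CPM in Stc1-KO replicate 2 and 6.01 CPM in replicate 1, against 1.59 and 1.54 CPM in WT, with Pecam1 at 0.24 CPM in both Stc1-KO libraries; its part in the result was not tested.

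With replicate 1 of Stc1-KO left out, 9 of the 10 genes passed against WT, 8 higher and Nfkb1 lower, where 24% of all genes passed. With replicate 2 left out 6 passed (Rela, Relb, Nfkbia, Bcl3, Tnfaip3 and Zc3h12a, all higher), where 6.51% of all genes passed. Each of these fits rests on 1 Stc1-KO library, which is assumed to vary like the other groups. The log2 fold change of Nfkbie was 2.36 without replicate 1 and 0.32 without replicate 2, that of Nfkb2 was 1.39 and 0.29, and that of Nfkbia was 2.22 and 1.22. For Zc3h12a both were 2.37 and 2.36.

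Per kilobase of merged exon length, an approximate scale for comparing genes, Rela was the highest of the 10 genes in every group. That length joins the exons of all annotated transcripts, 12061 bases for Nfkb1 against 3072 for Rela. A gene with annotated exons that few of its transcripts use reads too low on it, so ranks depend on the annotation. Its level was 142 ± 19.1 CPM per kb in Stc1-KO, 158 ± 11.2 in Pygo1-KO, 126 ± 4.44 in Rlim-KO and 106 ± 5.36 in WT (SD, n = 2). Nfkb2 ranked 2 at 112 ± 57.4, 73.1 ± 4.32, 75.9 ± 1.81 and 58.2 ± 1.91 CPM per kb, and its Stc1-KO range overlapped that of Rela. Bcl3 ranked 3 in every group, at 60.1, 48.6, 50.9 and 32.5 CPM per kb, and Tnfaip3 was lowest in every group, at 4.31, 4.03, 2.34 and 1.22 CPM per kb. Zc3h12a ranked 9 in WT at 4.02 CPM per kb, above Tnfaip3 and below Nfkbiz without overlap. It ranked 7 in Stc1-KO at 20.8 CPM per kb, where the ranges of Nfkbia, Nfkbie, Relb and Zc3h12a overlapped from neighbour to neighbour, 8 in Pygo1-KO at 16.9 and 6 in Rlim-KO at 17.7. In WT the means of Nfkb1 and Relb, at 11.2 and 11.1 CPM per kb, did not differ beyond their spread.

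Of the summed RNA per kb of the 5 subunit genes, Rela made up 61.5 and 40.3% in Stc1-KO, 54.7 and 59.0% in Pygo1-KO, 52.9 and 53.4% in Rlim-KO, and 56.1 and 57.0% in WT. Nfkb2 made up 28.4 and 48.1% in Stc1-KO, 27.8 and 24.9% in Pygo1-KO, 32.2 and 31.9% in Rlim-KO, and 31.3 and 31.0% in WT. In Stc1-KO replicate 2, unlike the other 7 libraries, Nfkb2 exceeded Rela on this scale. The share of Nfkb1 was 3.50 and 2.30% in Stc1-KO, 9.21 and 8.66% in Pygo1-KO, 6.20 and 5.73% in Rlim-KO, and 6.23 and 5.76% in WT. Rel, which encodes c-Rel and is not one of the 10, stayed under 0.51% of the sum in every library. These shares were not tested, and their size depends on the merged exon lengths, the longest of which is that of Nfkb1.

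**Figure D3:**
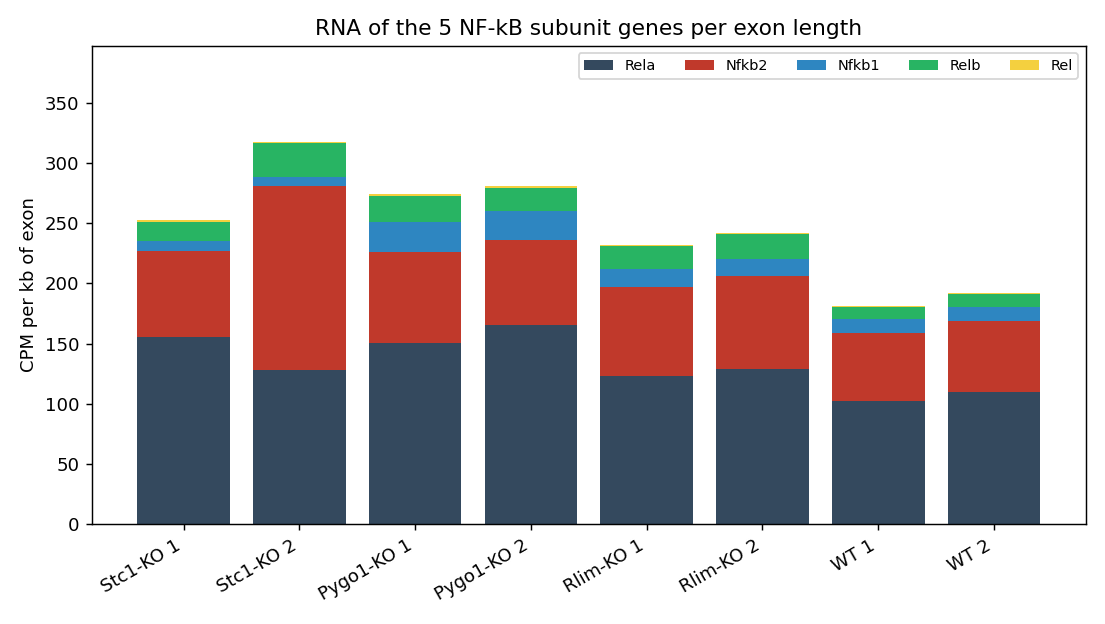
Stacked CPM per kb of exon (axis from 0) of the subunit genes Rela, Nfkb2, Nfkb1, Relb and Rel in each library. Rela is the largest part except in Stc1-KO replicate 2, where Nfkb2 reaches 153 CPM per kb against 128 for Rela, and Nfkb1 takes its largest share, 9.21 and 8.66%, in Pygo1-KO.

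The rest of the pathway was read through lists of ligands, receptors and adaptors, kinases, other brakes and classical targets. Of all genes, 0.286, 1.54 and 0.785% rose in Stc1-KO, Pygo1-KO and Rlim-KO by edgeR. Classical NF-kB target genes (24 listed, 21 tested) held the most called genes: 5 rose in Stc1-KO, 9 in Pygo1-KO and 6 in Rlim-KO, and 0 fell in each by edgeR (DESeq2 called 16, 16 and 14 higher and 0 lower; before adjustment 18, 17 and 16 were higher and 0 lower at p under 0.05). Their median log2 fold changes were 3.70, 3.29 and 3.17, against the medians near 0 over all genes given above; a gene near 0 in WT enters the test through the groups where it is high. Lcn2, the siderophore-binding lipocalin, stood at 265 and 269 CPM in Stc1-KO, 1136 and 913 CPM in Pygo1-KO, 1073 and 1104 CPM in Rlim-KO, and 61.5 and 62.1 CPM in WT, and rose by 2.11 ± 0.14, 4.05 ± 0.15 and 4.14 ± 0.15 on the log2 scale (SE; edgeR, adjusted p = 0.00397, 0.000181 and 0.000241). All mutant-labelled libraries of Lcn2 lay far above WT, with the Stc1-KO pair lowest among them. The chemokine gene Ccl20 stood under 0.4 CPM in both WT libraries and rose by 3.82 ± 0.26, 3.49 ± 0.26 and 3.85 ± 0.26 on the log2 scale (edgeR, adjusted p = 0.00397, 0.00311 and 0.00373). Cxcl1, a neutrophil chemokine gene, rose by 3.79 ± 0.27, 3.83 ± 0.27 and 3.66 ± 0.27 (edgeR, adjusted p = 0.00397, 0.00239 and 0.00445), and its relative Cxcl5 by 3.51 ± 0.28, 3.52 ± 0.28 and 4.32 ± 0.30 (edgeR, adjusted p = 0.00738, 0.00415 and 0.00373). Earlier results of these data had already shown inflammatory targets higher, so this list is not independent evidence.

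Among 17 tested genes of other brakes on the pathway, 1 rose in Stc1-KO, 2 in Pygo1-KO and 2 in Rlim-KO. By edgeR 0 fell under each label (DESeq2 called 0, 0 and 1 lower; 0, 1 and 1 were lower at an unadjusted p under 0.05). Ier3, an early response gene that NF-kB induces, stood at 254 and 228 CPM in Stc1-KO, 213 and 181 CPM in Pygo1-KO, 205 and 207 CPM in Rlim-KO, and 110 and 124 CPM in WT. It rose under all 3 labels, by 1.04 ± 0.13, 0.75 ± 0.13 and 0.82 ± 0.13 on the log2 scale (SE; edgeR, adjusted p = 0.0322, 0.0433 and 0.0443). Tnip3, a partner of A20, rose in Pygo1-KO and Rlim-KO (edgeR, adjusted p = 0.0494 and 0.0386) at low levels. It had 32 and 27 counts in Pygo1-KO, 59 and 41 in Rlim-KO, and 2 and 3 in WT. Like other genes near 0 in WT, it entered the test through the groups where it is high. The median over the tested brakes was 0.37, 0.19 and 0.28 on the log2 scale.

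Upstream, fewer genes were called than among the classical targets. Of 10 kinase genes none passed in edgeR (0 under each label, with 2, 3 and 1 at an unadjusted p under 0.05; DESeq2 called 0, 0 and 1), and their medians were 0.000904, -0.06 and 0.08 on the log2 scale; Map3k14, the gene of NIK, stood at 76.9 and 112 CPM in Stc1-KO, 49.3 and 62.3 CPM in Pygo1-KO, 56.3 and 57.1 CPM in Rlim-KO, and 56.1 and 61.0 CPM in WT. Of 21 receptor and adaptor genes 0, 2 and 1 rose and 0 fell by edgeR, where 0.286, 1.54 and 0.785% of all genes rose. Before adjustment 4, 4 and 4 were higher and 0, 1 and 3 lower at p under 0.05 (edgeR). DESeq2 called 1, 4 and 2 higher and 0, 0 and 1 lower. The signalling adaptor genes Traf5 and Traf2 rose in Pygo1-KO by 1.20 ± 0.19 and 0.69 ± 0.12 (SE; edgeR, adjusted p = 0.0323 and 0.0436). The receptor gene Cd40 rose in Rlim-KO (edgeR, adjusted p = 0.0484) on 33 and 37 counts, against 2 and 1 in WT. Being near 0 in WT, Cd40 entered the test through the groups where it is high. Of the 6 tested ligand genes none passed in edgeR (0 under each label, with 3, 4 and 4 at an unadjusted p under 0.05). DESeq2 called 0, 2 and 1. Their medians were not near 0, at 1.28, 1.28 and 1.10 on the log2 scale, with lowest values of -2.63, -1.23 and -2.12. Some of these genes were near 0 in WT, among them Tnf and Il1a, which entered the test through the groups where they are higher. Tnf stayed under 0.4 CPM in every library. Of the 3 remaining family genes, Rel, Nfkbib and Nfkbid, none passed in edgeR. At an unadjusted p under 0.05, 1, 1 and 0 were higher and 0 lower, and DESeq2 called 0, 1 and 0 higher and 0 lower. Nfkbid was under 1 CPM in all libraries, with 0 counts in Pygo1-KO and Rlim-KO. As given above, at most 10 of all genes passed without either WT library, which limits these calls too.

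**Figure D4:**
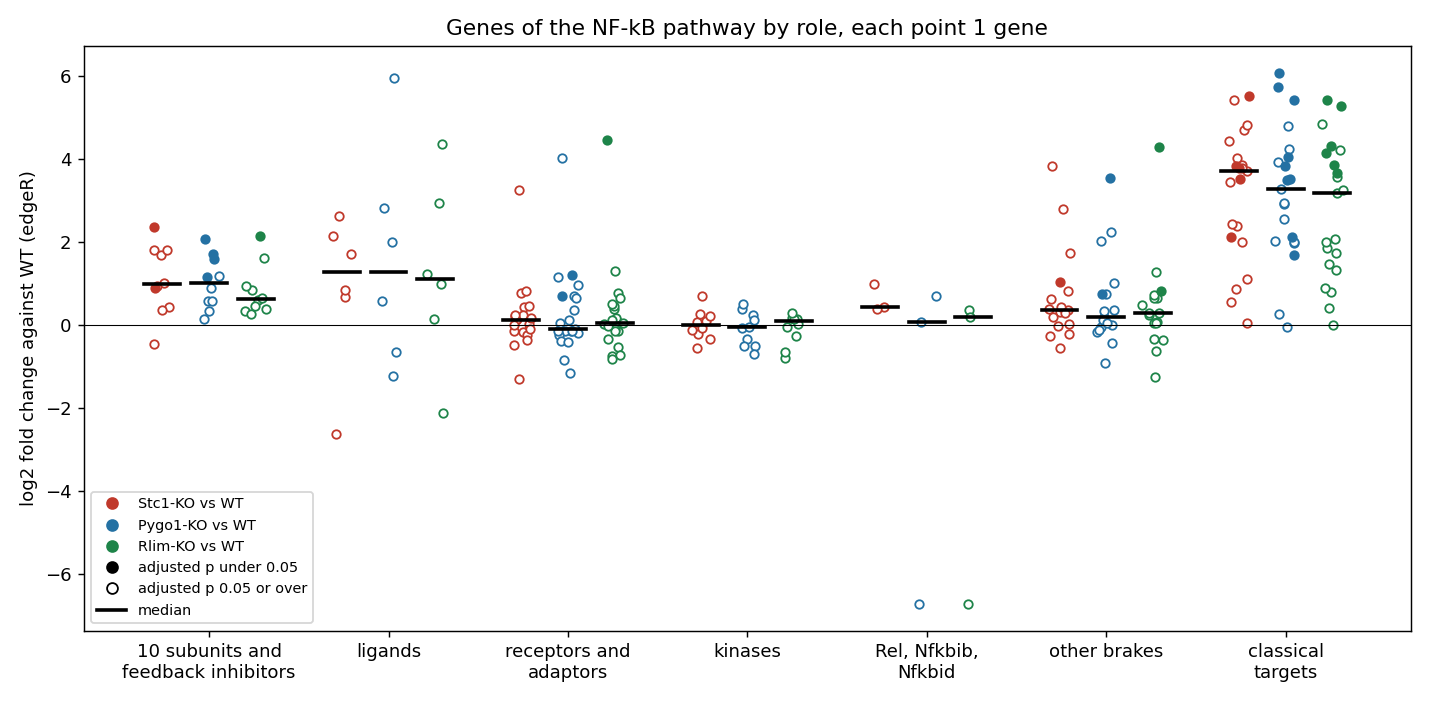
Log2 fold change against WT (edgeR) of each tested gene by role in the pathway, for Stc1-KO, Pygo1-KO and Rlim-KO, with filled points at an adjusted p under 0.05 and black bars for medians. Classical targets have medians of 3.70, 3.29 and 3.17 and kinases lie near 0; the points near -6.7 are Nfkbid, which had 0 counts in Pygo1-KO and Rlim-KO, so that its position depends on the prior count, as does that of the ligand gene Il1a with WT counts of 0 and 1.

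Genes most like 3 of the members over the 8 libraries were named by the root mean square difference of their log2 CPM relative to the WT mean, among 9967 genes that reached the 5 CPM mean set for it. For Nfkbia these were Mdga1, Smad9, Pfkl, Ccl2 and Adamts7, at 0.213 to 0.311, where the median gene lay at 1.5. Mdga1, for example, stood at 36.8 and 70.2 CPM in Stc1-KO, 47.4 and 48.9 CPM in Pygo1-KO, 69.0 and 68.0 CPM in Rlim-KO, and 18.1 and 18.1 CPM in WT. For Nfkb2 they were Pkp2, Mllt1, Hspg2, Ubtd2 and Fchsd2, at 0.0939 to 0.129 where the median gene lay at 0.643. Pkp2 stood at 33.4 and 70.9 CPM in Stc1-KO, 40.8 and 34.8 CPM in Pygo1-KO, 38.5 and 38.8 CPM in Rlim-KO, and 27.5 and 27.2 CPM in WT. Like Nfkb2, it was far higher in Stc1-KO replicate 2 than in replicate 1. For Zc3h12a they were Smad9, Pde3b, Cebpd, H2-M2 and Ccl2, at 0.45 to 0.489, less close than for the other 2 genes, with a median gene at 1.95. The chemokine gene Ccl2, at 145 and 380 CPM in Stc1-KO, 313 and 267 CPM in Pygo1-KO, 218 and 222 CPM in Rlim-KO, and 67.5 and 65.0 CPM in WT, was named for both Nfkbia and Zc3h12a. The 5 CPM mean runs over all 8 libraries, so a gene low in WT can reach it through libraries where it is high. In WT, Smad9 stood at 1.94 and 2.14 CPM and Pde3b at 1.97 and 1.77 CPM. H2-M2 stood at 3.75 and 3.46 CPM there, and Ubtd2 at 4.17 and 4.34 CPM.

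Reads assigned to a genome showed which parental copy carried the RNA; no label ties genome 1 to a parent. Over all genes tested for a changed genome share (at least 20 such reads in every library, 12449 genes), 5.55% were called in Stc1-KO (1.07% with more and 4.48% with less genome 1), 20% in Pygo1-KO (11.9% and 8.06%) and 12% in Rlim-KO (9.51% and 2.44%). All 10 members were tested, and 3 were called in Pygo1-KO, where 20% of all genes were, Nfkb2 and Rela with more genome 1 and Nfkbiz with less. None was called in Stc1-KO or Rlim-KO (0 in each by edgeR, with 0 and 1 at an unadjusted p under 0.05; DESeq2 was not run on shares). Intervals beside shares are 95% Wilson intervals and cover counting error only.

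Nfkb2 was read from genome 1 almost alone in Pygo1-KO. Its genome 1 share was 99.9% in replicate 1 (interval 99.88 to 99.95) and 99.8% in replicate 2 (99.78 to 99.90) of Pygo1-KO, against 78.5% (77.7 to 79.1) and 78.6% (77.9 to 79.2) in WT. The log2 odds of genome 1 differed by 7.98 ± 0.36 (SE; edgeR, adjusted p = 9.69e-05), and Nfkb2 was called with each of the 8 libraries left out in turn. Genome 2 gave 15 and 25 reads of Nfkb2 in Pygo1-KO, against 2814 and 2997 in WT. Genome 1 gave 252 and 227 CPM in Pygo1-KO, against 133 and 138 CPM in WT, which is 1.77 times the WT mean. With the genome 2 RNA nearly gone, the total of Nfkb2 in Pygo1-KO was 1.31 and 1.20 times the WT mean. The 10 nearest genes that use both genomes in WT had a median genome 1 share of 98.4 and 97.7% in Pygo1-KO (9 of them with a value in replicate 2), against 69.6 and 70.0% in WT. The median total of these neighbours was 0.90 and 0.95 times WT in Pygo1-KO. Over 420 genes of chromosome 19 the median genome 1 share was 91.6 and 99.6% in Pygo1-KO, against 75.4 and 75.6% in WT. In Stc1-KO and Rlim-KO the Nfkb2 share was 77.6 to 79.5%, and the RNA of both genomes was above WT in every library.

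Rela lies elsewhere on chromosome 19. Its genome 1 share was 86.4% (86.0 to 86.8) and 83.9% (83.5 to 84.4) in Pygo1-KO, against 76.7% (76.1 to 77.4) and 75.8% (75.2 to 76.4) in WT (log2 odds 0.84 ± 0.16, SE; edgeR, adjusted p = 0.0201). Genome 1 gave 1.69 times and genome 2 0.95 times the WT mean, and the genome 2 libraries overlapped those of WT. The median share of neighbours of Rela was 87.4 and 83.7% in Pygo1-KO, against 76.0 and 77.3% in WT, and their total was 1.29 and 1.49 times WT, beside 1.42 and 1.57 times for Rela itself. The Rela call ended without either Rlim-KO or either WT library and with the compared groups alone (edgeR, adjusted p = 0.0614 to 0.139).

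Nfkbiz on chromosome 16 moved the other way. Its genome 1 share was 61.1% (59.0 to 63.1) and 56.0% (53.8 to 58.2) in Pygo1-KO, against 73.6% (71.6 to 75.5) and 69.1% (67.0 to 71.2) in WT (log2 odds -0.82 ± 0.19, SE; edgeR, adjusted p = 0.0337). It was 63.1 and 64.3% in Rlim-KO, which did not pass (-0.51 ± 0.19; edgeR, adjusted p = 0.169). The median share of Nfkbiz neighbours was 37.0 and 36.7% in Pygo1-KO, 45.4 and 46.8% in Rlim-KO, and 52.3 and 48.9% in WT. The Nfkbiz call in Pygo1-KO ended without Pygo1-KO replicate 2, without either Rlim-KO or either WT library and with the compared groups alone (edgeR, adjusted p = 0.0503 to 0.193). Nfkbie in Pygo1-KO had genome 1 shares of 42.1% (40.5 to 43.8) and 30.9% (29.3 to 32.6), against 49.3% (46.7 to 51.9) and 54.7% (52.2 to 57.2) in WT, and missed the threshold (log2 odds -0.93 ± 0.26; edgeR, adjusted p = 0.0659), passing without Pygo1-KO replicate 1 (0.0027).

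The share of Nfkb1 stayed near that of WT in Pygo1-KO, while the median of its chromosome did not. Its genome 1 share was 85.7% (85.1 to 86.3) and 85.1% (84.5 to 85.8) in Pygo1-KO, against 85.1% (84.2 to 86.0) and 84.9% (83.9 to 85.7) in WT, whereas the median over 568 genes of chromosome 3 was 99.8% in both Pygo1-KO libraries, against 79.3 and 79.2% in WT. The 9 nearest genes that use both genomes in WT were at 68.9 and 68.5% in Pygo1-KO, against 68.4 and 68.6% in WT. In Pygo1-KO, RNA of Nfkb1 was 2.22 times the WT mean from genome 1 and 2.14 times from genome 2, and the median total of the neighbours was 1.32 and 1.23 times WT. The part of the neighbourhood in the higher Nfkb1 level was not tested.

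Zc3h12a was read from genome 2 nearly alone in every library. Genome 1 gave 1 to 5 reads per library of 583 to 3059 with a genome, a share of at most 0.19% with interval bounds up to 0.97%. Genome 2 RNA was 5.27 times the WT mean in Stc1-KO, 4.38 times in Pygo1-KO and 4.61 times in Rlim-KO. The median genome 1 share over 722 genes of chromosome 4 was 1.10 to 1.37% in all 8 libraries, while the 10 nearest genes that use both genomes in WT (a choice that sets them apart) stood at 27.2 to 35.9%.

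Nfkbia RNA was higher than WT from both genomes alike: genome 1 stood at 3.39, 3.05 and 3.02 times and genome 2 at 3.46, 2.99 and 2.94 times the WT mean in Stc1-KO, Pygo1-KO and Rlim-KO. Its genome 1 share lay between 49.2 and 53.3% in all libraries. Relb and Bcl3 on chromosome 7 and Tnfaip3 on chromosome 10 were also above both WT libraries from each genome under every label. Changes of single genomes were not tested.

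**Figure D5:**
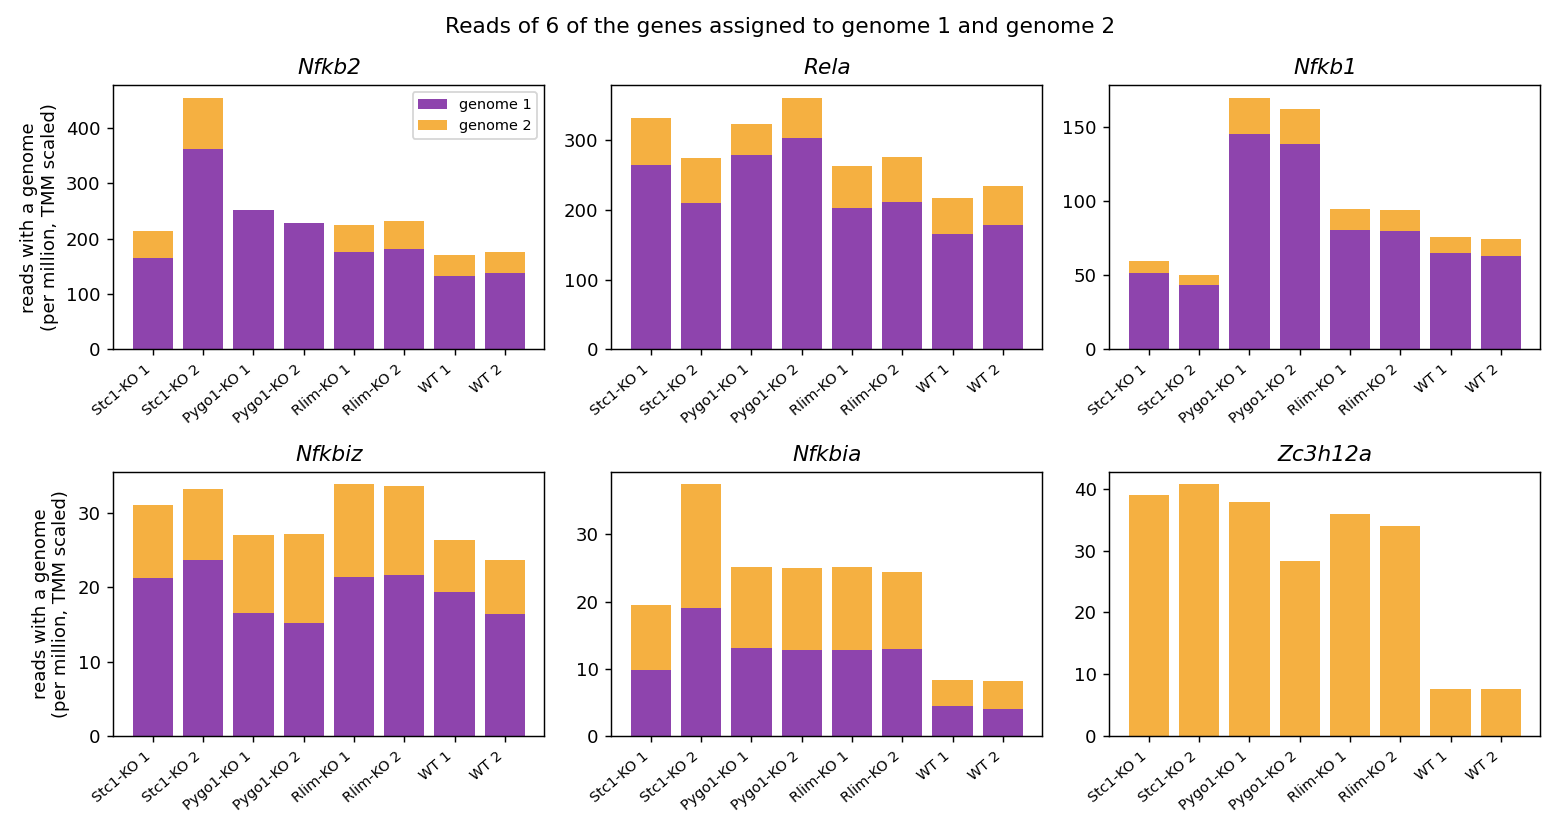
CPM of reads assigned to genome 1 (purple) and genome 2 (orange), stacked from 0, for Nfkb2, Rela, Nfkb1, Nfkbiz, Nfkbia and Zc3h12a in each library. Genome 2 is all but missing from Nfkb2 in Pygo1-KO (15 and 25 reads, against 2814 and 2997 in WT), both genomes are higher for Nfkbia, and Zc3h12a is read from genome 2.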

How the data were processed

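Total RNA extracted with Trizol went into TruSeq libraries run on an Illumina GAIIx, per the labels' protocols. HISAT2 2.0.5, Cufflinks, featureCounts and mm10 are named in the submitters' processing notes, without role or order. The authors deposited raw counts per Ensembl gene for all reads, genome 1 and genome 2. The annotation version, the strand setting, how multi-mapping reads were handled and what split the reads by genome are not given in the sources used here. If reads were aligned to mm10 alone, C57BL/6 reads may be favoured, so shares were compared between libraries.

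Symbols and coordinates came from GENCODE M21 (GRCm38; 49411 of 49670 rows matched). Counts of all reads went into a quasi-likelihood model (edgeR 4.0.16 under R 4.3.3; TMM), with the default expression filter (17839 genes) and 1 mean per group over 8 libraries, and Benjamini-Hochberg adjustment over all genes tested; adjusted p under 0.05 was called. CPM uses the TMM factors, and CPM per kb the merged exon length. The SE of a log2 fold change is its absolute value over the square root of the test's F. It thus rests on a spread shared over all 8 libraries. Genome shares were fitted in edgeR with a library term and a genome term per group, for genes with at least 20 reads with a genome in every library and a sum of both genomes not above all counts. Neighbours are the 5 nearest genes on each side with 20 to 80% genome 1 in WT. DESeq2 1.42.0, other scalings, filters, samples in the fit and a replicate term were alternatives. The members and lists were chosen with earlier results of these data known. Named genes were the members, the targets, the defining markers, up to 3 called genes with the smallest adjusted p per list and comparison with WT, and the 5 genes most like Nfkbia, Nfkb2 and Zc3h12a; Map3k14, Tnf, Rel, Nfkbib and Nfkbid were named after their values were seen. Both models were tested on simulated data. The share test missed part of the differences put into simulated reads, and all of them in 2 earlier versions with other settings of the spread. The setting was changed after that was seen, so the part recovered depends on the simulated spread. An uncalled share therefore does not show an equal share.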

Additional observations from a re-analysis of the deposited data

How the results depend on the processing

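Against WT, no member's fold change turned sign under any alternative, but the number called depended on the setting. For Stc1-KO, Pygo1-KO and Rlim-KO it was 2, 4 and 1 as reported, where 0.577, 2.35 and 1.4% of all genes were called. By DESeq2 it was 6, 7 and 6 (4.79, 8.98 and 6.96% of all genes). The compared groups alone gave 0, 8 and 10 (0, 9.97 and 48.9%). No filter gave 4, 4 and 2 (1.23, 2.95 and 2.08%), and RLE scaling 1, 4 and 1 (0.572, 2.26 and 1.41%). Scaling each chromosome on its own gave 2, 2 and 1 (0.74, 2.72 and 1.69%). Without both Stc1-KO libraries it was 9 and 9 for Pygo1-KO and Rlim-KO (21 and 17.4%). With 1 library left out, a group rests on 1 library. The number called then shifted widely, and with it the share of all genes called. Between labels, Stc1-KO against Pygo1-KO, Stc1-KO against Rlim-KO and Pygo1-KO against Rlim-KO, 1, 0 and 1 were called (1.74, 0.381 and 1.02% of all genes). DESeq2 called 1, 1 and 1 (6.39, 4.45 and 5.64%), as did the fit with no filter (2.32, 1.13 and 1.77%). Fitting the compared groups alone gave 0, 0 and 3 (0, 0.0703 and 5.66%). For Pygo1-KO against Rlim-KO, 0 were called with each chromosome scaled on its own (1.19%) and 3 without both Stc1-KO libraries (13.9%). These numbers also shifted with 1 library left out. Changed genome shares numbered 0, 1 and 1 with the compared groups alone, and 0 to 0, 1 to 4 and 0 to 0 with 1 library left out. The cause was not tested.

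The labels name no batch shared by libraries of the same replicate number, and the counts cannot settle whether there was one. Deviations of same-numbered libraries correlated from -0.198 (Stc1-KO and Pygo1-KO) to 0.266 (Rlim-KO and WT). All correlations among Pygo1-KO, Rlim-KO and WT were positive, from 0.111 upward, and those of Stc1-KO were at most 0.0112. With the replicate block, 1, 2 and 1 members were called against WT (0.101, 0.611 and 0.146% of all genes). Between labels the block left 1, 0 and 0 called (0.538, 0.0392 and 0.213%), and 2 shares changed in Pygo1-KO. Bcl3 in Stc1-KO, Nfkbia and Tnfaip3 in Pygo1-KO, Nfkb1 between Pygo1-KO and Rlim-KO and the Nfkbiz share in Pygo1-KO were not called there. Crossing the numbers of Stc1-KO against Pygo1-KO gave 0 calls, as did the block as labelled, both with the 2 groups alone.

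The log2 fold changes that turned sign with 1 library left out were all uncalled with the 8 libraries. Between Stc1-KO and Pygo1-KO they ran from -0.029 to 1.06 for Nfkb2, -0.39 to 0.48 for Relb, -0.37 to 0.63 for Nfkbia, -0.86 to 1.18 for Nfkbie and -0.49 to 0.51 for Tnfaip3. Between Stc1-KO and Rlim-KO they ran from -0.087 to 1.01 for Nfkb2, -0.35 to 0.52 for Relb, -0.40 to 0.60 for Nfkbia and -0.28 to 1.76 for Nfkbie; all of these turned without Stc1-KO replicate 2 (Tnfaip3 also without Pygo1-KO replicate 2), where Nfkbie was called lower in Stc1-KO than in Pygo1-KO (edgeR, adjusted p = 0.00365). Between Pygo1-KO and Rlim-KO they ran from -0.12 to 0.00268 for Nfkb2, -0.041 to 0.12 for Relb and -0.30 to 0.14 for Zc3h12a, and Bcl3 turned to 0.015 with each chromosome scaled on its own.

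Log2 odds of genome 1 that turned, all uncalled, ran in Stc1-KO from -0.080 to 0.090 for Nfkb2, -0.15 to 0.082 for Nfkbia, -0.18 to 0.13 for Nfkbie, -0.27 to 0.047 for Nfkbiz and -0.17 to 0.13 for Bcl3. In Pygo1-KO they ran from -0.087 to 0.15 for Nfkbia and -0.48 to 0.21 for Tnfaip3, and in Rlim-KO from -0.076 to 0.16 for Nfkbia, -0.30 to 0.00741 for Nfkbie and -0.023 to 0.029 for Zc3h12a, the last on 1 to 5 reads of genome 1.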
